A study of Mus musculus with 4 samples.

Results

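Connexins are the subunits of gap junction channels, and 6 mouse connexin genes are described here in yolk sacs at embryonic day 9.5: the arterial connexin genes Gja5 and Gja4, together with Gja1, Gjc1, Gjb2 and Gjb5. They are 6 of 19057 named genes with a probe on the array, and 5 of them, all but Gjb5, are among 10603 genes tested. Total RNA from 4 C57BL/6 yolk sac samples had been hybridised to Illumina bead arrays, on which the fluorescence of beads carrying a short probe reports the amount of a transcript. In 2 samples labelled Flk1Cre;ETV2 CKO (here ETV2 CKO or CKO), Etv2 had been inactivated with Cre and loxP sites in FLK1+ cells, FLK1 being the receptor encoded by Kdr. Etv2 encodes an ETS-family transcription factor of blood and vessel formation. The other 2 samples are labelled control and described as WT, and whether they carried loxP sites or the Cre is not stated, nor whether samples came from separate embryos or litters. The standard errors may therefore hold technical spread alone. Cre acts in cells that carry or carried FLK1, while the RNA came from the whole membrane with its endoderm, mesoderm and blood.

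The members were chosen by name with their differences between these same arrays already known: Gja5 and Gja4 stood among the largest decreases of the ETV2 CKO arrays. Their differences are therefore given as descriptions, with a standard error and without a p-value. All probes named for a member were used, 14 in all, of which 9 were above background on all 4 arrays (detection p under 0.05), 1 on 3 arrays and 4 on none.

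The Etv2 probe went against the labels. It gave 206 and 227 on CKO arrays, against 157 and 177 on control arrays, a log2 difference of 0.46 ± 0.10 (limma adjusted p = 0.0199), and no source used here says whether it reads the inactivated part. Every direction given below for the libraries labelled ETV2 CKO and control therefore rests on those labels. Between 17934 and 18798 probes were above background on an array, and with 2 arrays a group the precision of each value is limited by their number.

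A connexin channel forms when a ring of connexins in one cell docks with a ring in its neighbour, and ions and small metabolites then pass between the cells. Gja5 (Cx40) and Gja4 (Cx37) are the connexins known from arterial endothelium, where mouse studies place them downstream of Notch signalling and blood flow, and Gja5 is also a connexin of the atrium and the conduction system of the heart. Gja1 (Cx43) is made in many cell types, among them smooth muscle, heart and epithelia. Gjc1 (Cx45) is a connexin of early endothelium and heart, and mice that lack it die in mid-gestation with failed vessel remodelling in the yolk sac. Gjb2 (Cx26) is known from epithelia and from the mouse placenta, where it takes part in glucose transfer, and Gjb5 (Cx31.1) from trophoblast and skin.

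The promoter windows of both arterial connexins are shown because their differences were alike, with that of Gja1, whose difference was small, for comparison. Each runs 5′ to 3′ along the gene's strand over 300 bases (250 before to 50 after the annotated start), from RefSeq on build GRCm38.p6. Capitals mark the ETS core word GGAA on either strand, which reads TTCC when it lies on the other one. The windows lie at chr3:97032152-97032451 on the plus strand for Gja5, chr4:127313990-127314289 on the minus strand for Gja4 and chr10:56377050-56377349 on the plus strand for Gja1.
Gja5: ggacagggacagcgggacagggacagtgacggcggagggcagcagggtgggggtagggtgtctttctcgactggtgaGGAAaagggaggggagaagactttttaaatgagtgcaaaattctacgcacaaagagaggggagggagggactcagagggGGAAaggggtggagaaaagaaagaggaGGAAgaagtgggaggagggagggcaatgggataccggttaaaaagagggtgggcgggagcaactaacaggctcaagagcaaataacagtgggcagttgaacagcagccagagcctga
Gja4: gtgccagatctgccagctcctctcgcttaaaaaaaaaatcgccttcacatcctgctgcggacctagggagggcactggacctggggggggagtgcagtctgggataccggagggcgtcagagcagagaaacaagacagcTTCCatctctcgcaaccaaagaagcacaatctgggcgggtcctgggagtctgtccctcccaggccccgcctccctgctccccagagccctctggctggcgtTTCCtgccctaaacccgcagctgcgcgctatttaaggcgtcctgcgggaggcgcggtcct
Gja1: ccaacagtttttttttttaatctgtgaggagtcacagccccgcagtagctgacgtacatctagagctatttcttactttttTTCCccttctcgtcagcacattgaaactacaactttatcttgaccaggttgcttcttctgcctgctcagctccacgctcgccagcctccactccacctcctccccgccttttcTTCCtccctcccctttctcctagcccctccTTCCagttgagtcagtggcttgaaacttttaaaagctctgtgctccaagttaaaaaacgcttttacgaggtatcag

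The ETS core word stood 3 times in the Gja5 window, at 173, 94 and 67 bases before the annotated start, 2 times in the Gja4 window and 3 times in that of Gja1. It is a common word, present in 96.0% of 32851 windows of this length, with a median of 3 sites, so these counts are at or near that median. The longer ETS word CGGAAG, which contains the core and occurs in 16.9% of windows, was in none of the 5 member windows in the table. The word CACCC, read by Krüppel-like factors, stood 4 times in the Gja5 window, each time on the minus strand, and was absent from that of Gja4. At least 1 such word is in 57.5% of all windows and at least 4 are in 3.1%, and the Gjb2 window held 7. A SOX core word, ACAAT, was in the Gja4 window once (31.0% of all windows hold it), while GATAA and the RBPJ word TGGGAA, in 25.4% and 25.6% of windows, were in neither arterial connexin's window; TGGGAA also contains the ETS core. A word is no more than a match of letters, and an annotated start need not be the one used in yolk sac.

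Gja5 was represented by 5 probes, which did not read alike. On probe ILMN_2908132, the brightest, raw signals were 182 and 215 on the ETV2 CKO arrays, against 666 and 667 on the control arrays. Probe ILMN_2691641 gave 184 and 216 on the CKO arrays and 631 and 670 on the control arrays, and probe ILMN_2908133 gave 175 and 181 on the CKO arrays and 394 and 439 on the control arrays. On all 3 probes both CKO arrays lay below both control arrays. Over all 16301 named probes above background on at least 2 arrays, both CKO arrays lay below both control arrays in raw signal for 11% and above them for 45.4%. After normalization these shares were 32.2% and 32.3%, and nothing is read from the Gja5 count. The CKO signals were still above background on these probes, so Gja5 RNA remained detectable in both CKO samples.

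After background correction and quantile normalization, the log2 difference of CKO minus control was -2.67 ± 0.11 for ILMN_2908132 (SE, n = 2 a group), with means of 6.57 in CKO and 9.23 in control samples. The other bright probes stood at -2.59 ± 0.11 and -2.17 ± 0.11. These correspond to 6.34-, 6.03- and 4.50-fold lower levels in CKO samples. The 4 pairings of a CKO array with a control array, which share arrays and restate this difference, lay between -2.48 and -2.85 on the brightest probe. On that probe the arrays within a group differed by 0.19 (CKO) and 0.17 (control).

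The 2 dim Gja5 probes did not show this decrease. ILMN_2678477 gave raw signals of 130 and 129 on CKO arrays against 127 and 131 on control arrays, which overlap, and it was above background on 1 of 2 CKO arrays and on both control arrays. Its normalized difference was -0.40 ± 0.14, and -0.06 on the authors' processed values. ILMN_2559898, designed on a cDNA clone record rather than the RefSeq transcript, was not above background on any array, with 108 and 105 on CKO arrays against 96 and 103 on control arrays. A fold change cannot be given for it. Which exons or transcript ends the 5 probes read is not known here.

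The place of a probe among all 45281 probes of its own array does not depend on background correction. ILMN_2908132 stood at the 72.7th and 73.9th percentile on the CKO arrays, against the 88.6th and 87.6th on the control arrays. Its raw signal exceeded the array's median probe by 64.5 and 89.8 units on the CKO arrays, against 557 and 553 units on the control arrays. On the CKO arrays most of the signal is thus what the median probe also gives, and the fold change depends on how that level is handled. It was 3.36-fold on raw signals, 3.69-fold without background correction, 2.61-fold on the authors' processed values and 6.34-fold as reported.

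Gja4, read by 1 probe, ILMN_2737704, was lower by a similar amount. Raw signals were 237 and 244 on the CKO arrays, against 737 and 631 on the control arrays. Both CKO arrays lay below both control arrays, as for 11% of named probes above background, and nothing is read from this. After normalization CKO samples averaged 7.09 and control samples 9.27 on the log2 scale, a difference of -2.18 ± 0.16 and 4.52-fold lower in CKO samples. It was 2.84-fold on raw signals and 2.36-fold on the authors' processed values. The control arrays differed from each other by 0.43 on the log2 scale, more than the 0.20 between CKO arrays. With only 1 probe there is no second reading of this gene.

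Because the RNA came from the whole yolk sac, fewer endothelial cells and less connexin RNA per cell cannot be told apart. Of 15 endothelial marker genes 13 were tested, of which 4 fell (30.8%) and 2 rose (15.4%), with a median of 0.02. Of all tested genes 10.8% were called lower and 14.4% higher. The summed normalized signal of the 13 tested endothelial markers was 13348 and 13468 on the CKO arrays, against 14017 and 13976 on control arrays. The endothelial markers called lower were Plvap at -0.70 ± 0.09, Tie1 at -0.62 ± 0.16, Emcn at -0.58 ± 0.13 and Flt1 at -0.45 ± 0.11. The raw signals of Tie1 overlapped, with 167 and 205 on CKO arrays and 189 and 234 on control arrays. The part of endothelial cell number in the connexin values was not tested. Robo4 rose by 0.80 ± 0.10 (limma adjusted p = 0.00391). The endothelial cadherin gene Cdh5 rose by 0.43 ± 0.10 on its brightest probe (limma adjusted p = 0.0224), with another probe at 0.06. Pecam1, an adhesion molecule gene of all endothelium, stood at 0.18 ± 0.10 and was not called. Kdr and Ecscr were not above background on enough arrays to be tested.

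Markers of several other cell types also differed between the groups, in lists chosen with earlier results of these data known. Beside the 14.4% of all tested genes called higher, all 6 tested cardiac muscle markers rose, with summed signals of 2048 and 1877 on CKO arrays against 845 and 826 on control arrays. Nppa, Myl7 and Myl2 were below background on both control arrays, so they were tested only because of their CKO signals. Their rises are bounds, of at least 1.08-, 2.03- and 2.03-fold, and nothing is read from the count of 6. Myh6 and Myh7 were not above background on enough arrays. Parietal endoderm markers rose in 7 of 8 cases (87.5%), with sums of 18001 and 17735 on CKO arrays against 9726 and 9614 on control arrays. Those called were Plat, Lama1, Nid1, Pth1r, Lamc1, Lamb1 and Sparc, while Thbd stood at -0.12 ± 0.15. Sparc was the brightest, with log2 means of 13.2 in CKO and 12.5 in control samples. Of 4 trophoblast markers 2 rose (50%), Prl2c2 by 2.91 ± 0.11 and Krt8 by 0.39 ± 0.09, while Tfap2c stood at -0.05 ± 0.11. Their sums were 19743 and 19527 on CKO arrays against 14575 and 15199 on control arrays. Most of each sum came from the keratin genes Krt8 and Krt18, with log2 means of 13.6 and 12.5 in CKO samples, against 9.75 for Prl2c2. Ascl2 and Tpbpa were not above background. Of 8 mesothelial, smooth muscle and mesenchymal markers 3 rose (37.5%), of 3 macrophage markers 1 (33.3%) and of 5 megakaryocyte markers 1 (20%), with 0 lower, and counts this small do not set a list apart from the background. Erythroid markers fell in 4 of 7 cases (57.1%, against 10.8% of all tested genes), the transferrin receptor gene Tfrc by 1.71 ± 0.09, with sums of 69216 and 69753 on CKO arrays against 74156 and 74985 on control arrays. The markers not called were the globin genes Hba-x, Hbb-bh1 and Hbb-y, at -0.05 ± 0.09, -0.02 ± 0.09 and 0.02 ± 0.09. The part of these cell types in the connexin values was not tested. All 8 visceral endoderm markers, which define yolk sac endoderm, were above background and none was called (0 with an unadjusted limma p under 0.05).

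**Figure D1:**
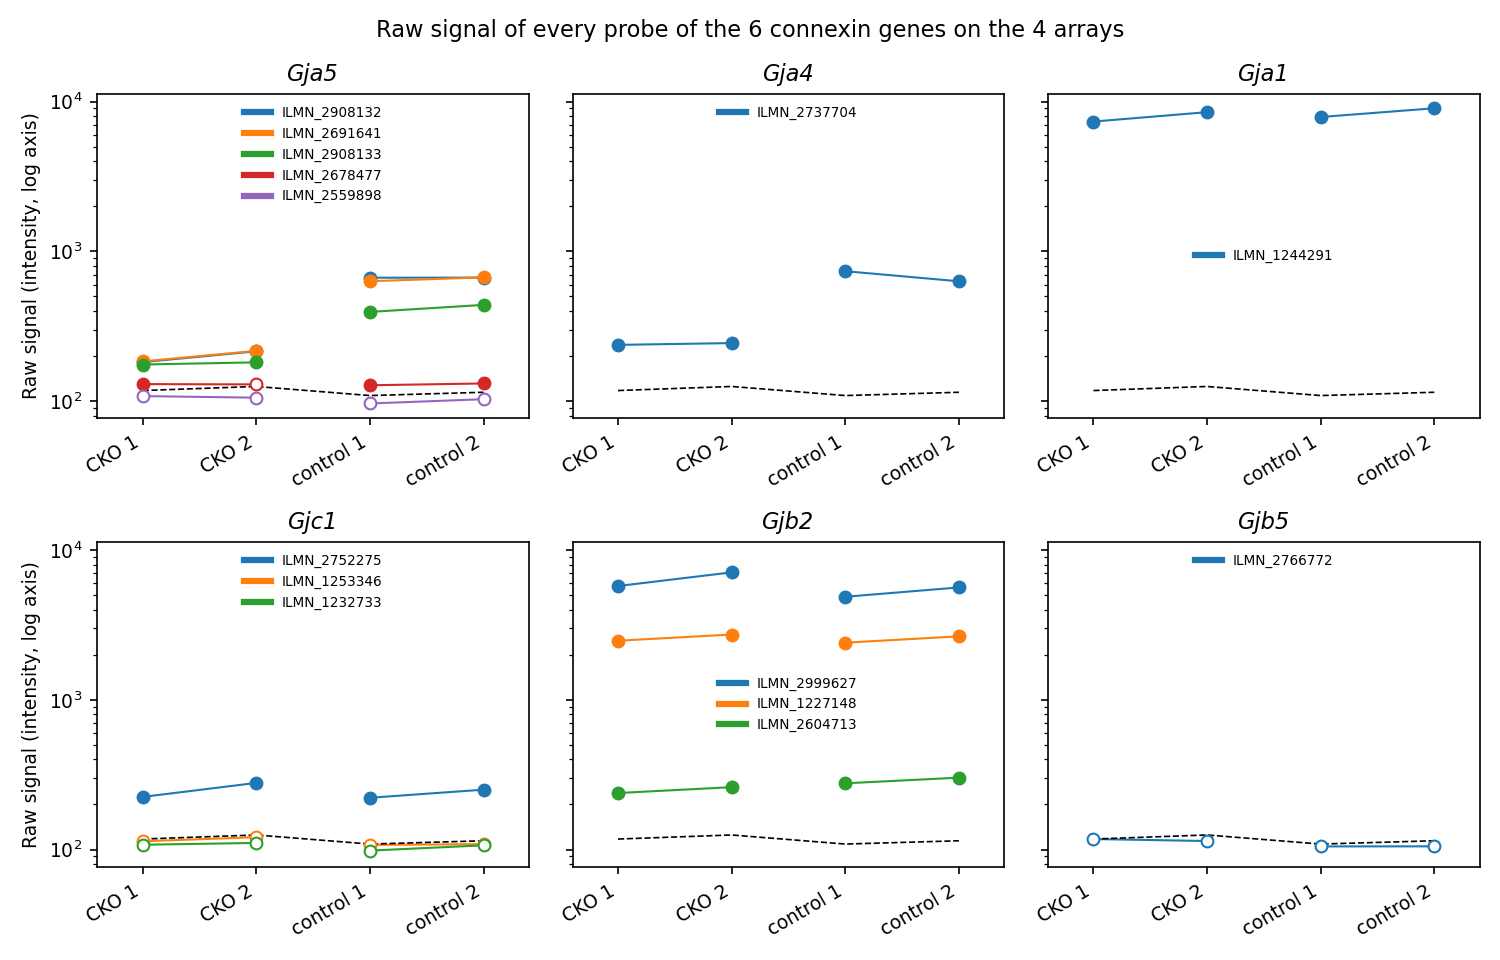
Raw signal (intensity, log axis) of all 14 probes of the 6 connexin genes on the 2 ETV2 CKO and the 2 control arrays, 1 point per array, with lines joining arrays of a group. Filled points are above background (detection p under 0.05), open points are not, and the dashed line is the median of all probes on the array. The 3 bright Gja5 probes and the Gja4 probe lie between 175 and 244 on CKO arrays and between 394 and 737 on control arrays, while the Gja1 probe and the Gjc1 probe above background overlap between groups, the Gjb2 probes differ in direction and Gjb5 stays near the median line.

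Gja1, a connexin gene of smooth muscle and epithelia, was bright, with 7353 and 8501 on the CKO arrays and 7888 and 9024 on the control arrays, and the raw signals overlapped. Its normalized difference was -0.14 ± 0.09, 1.10-fold lower in CKO samples, and on this scale both CKO arrays lay just below both control arrays, as for 32.2% of probes.

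Gjc1 was read above background by 1 of its 3 probes, ILMN_2752275, with raw signals of 225 and 279 on CKO arrays and 222 and 251 on control arrays. The groups overlapped, and the difference was -0.10 ± 0.11. The remaining Gjc1 probes, ILMN_1253346 and ILMN_1232733, lay between 108 and 121 on CKO arrays and between 98.4 and 109 on control arrays and were not above background on any.

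Gjb2 was read by 3 probes that disagreed in sign. The brightest, ILMN_2999627, gave 5753 and 7099 on CKO arrays and 4878 and 5631 on control arrays, a normalized difference of 0.25 ± 0.10. ILMN_1227148 gave 2481 and 2730 on CKO arrays and 2407 and 2654 on control arrays, a difference of -0.01 ± 0.10. The dimmest, ILMN_2604713, gave 238 and 261 on CKO arrays and 277 and 302 on control arrays, a difference of -0.55 ± 0.10. The groups did not overlap on the first and the last of these, in opposite directions, which with 2 arrays a group is common in either direction by the shares given above. All 3 probes are annotated to the same transcript, and the mean of the probes stood at -0.10.

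Gjb5 was not detected. Its probe, ILMN_2766772, gave 118 and 114 on CKO arrays and 105 and 105 on control arrays, with detection p-values between 0.158 and 0.536. Absence of the transcript is not shown by this, since a level below that of the negative control beads cannot be measured.

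**Figure D2:**
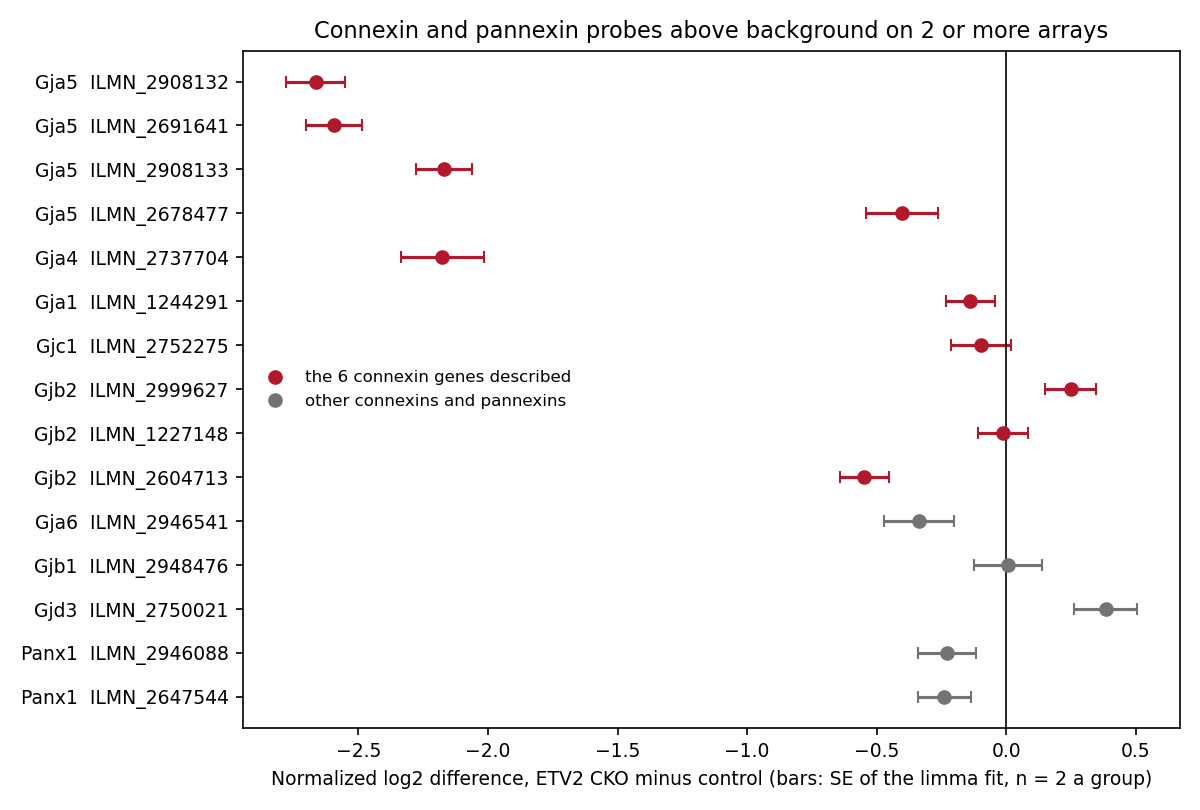
Normalized log2 difference of ETV2 CKO minus control for each connexin and pannexin probe above background on 2 or more arrays, with the standard error of the limma fit (n = 2 a group). Of the 10 probes of 5 of the 6 genes (red; Gjb5 has none), 3 of Gja5 and 1 of Gja4 lie between -2.67 and -2.17, and the others, with the 5 probes of other family members (grey), lie between -0.55 and 0.38.

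Among all 10603 tested genes, 1 had a larger decrease than Gja5 and 3 had a larger one than Gja4. Of the 5 tested members, 2 were called lower by limma at an adjusted p under 0.05 and 0 higher, where 10.8% of all tested genes were called lower and 14.4% higher. Since these same differences chose the members, nothing is read from that count. The median difference of all tested genes was 0.02.

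**Figure D3:**
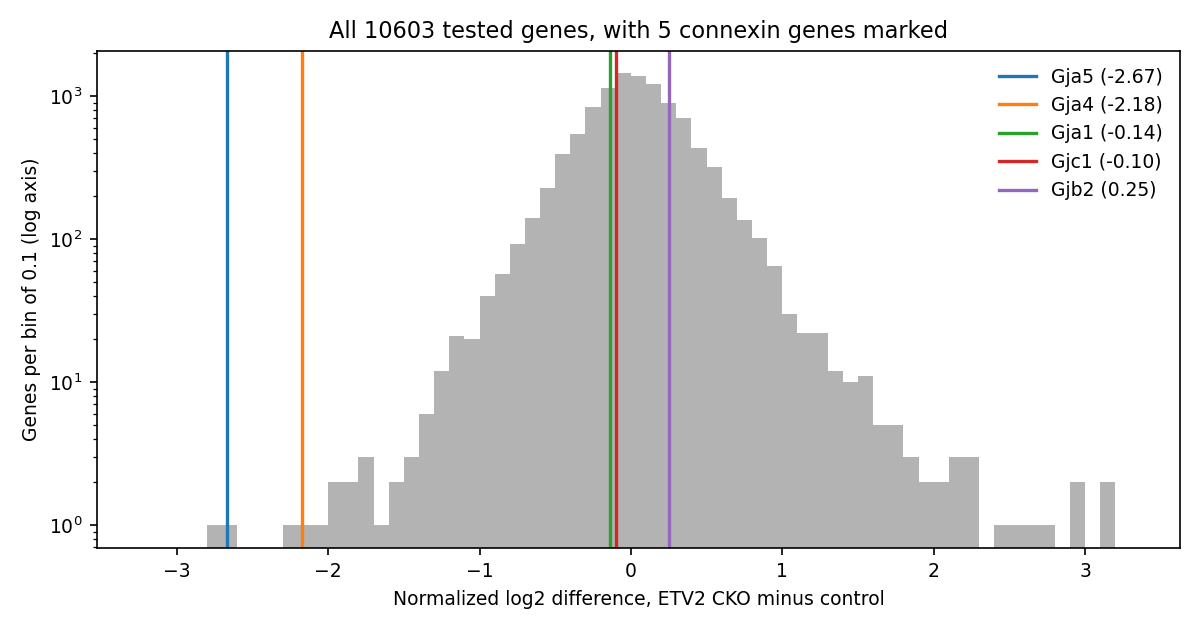
Distribution of the normalized log2 difference of ETV2 CKO minus control over 10603 tested genes (number of genes per bin of 0.1, log axis), with the 5 tested connexin genes as coloured lines. Gja5 and Gja4 lie in the far left tail, at -2.67 and -2.18, and Gja1, Gjc1 and Gjb2 lie near the centre, between -0.14 and 0.25.

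The genes with the pattern nearest to Gja5 were ranked by the root mean square difference of log2 values, each gene centred on its own mean over the 4 arrays. Psmd8, a proteasome subunit gene, was nearest at 0.14, followed by the kinase gene Sgk1 at 0.23, Gja4 at 0.30, Cfap57 at 0.37 and Clasrp at 0.38. Nearest to Gja4 were Fbp2 at 0.21, the metal transporter gene Slc39a8 at 0.22, and the cationic amino acid transporter gene Slc7a3, Clasrp and Sgk1, each at 0.24, with Gja5 in place 9. The measure reads the size of the group difference as well as the spread within groups.

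The tested genes nearest to the arterial connexins on the chromosome lay between -0.51 and 0.63, and genes not tested were passed over. The 3 nearest tested genes on either side of Gja5 and of Gja4 were taken, a number set after the values were seen. Of these 12, 10 did not pass the test, 1 was lower and 1 higher. Of all tested genes 10.8% were called lower and 14.4% higher, so nothing is read from these counts. Polr3c near Gja5 fell by 0.51 ± 0.10 (limma adjusted p = 0.0160) and Tlr12 near Gja4 rose by 0.63 ± 0.17 (limma adjusted p = 0.0375).

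Among the few tested genes of the rest of the connexin and pannexin family there was no called change. Of 17 further genes 13 had a named probe, and 4 of these were above background on at least 2 arrays. Gja6, a connexin gene known from mouse testis, had 164 and 195 on CKO arrays and 181 and 180 on control arrays, at -0.34 ± 0.13. Gjb1, the main connexin gene of liver, stood at 0.01 ± 0.13, the pannexin channel gene Panx1 at -0.23 ± 0.11 and Gjd3 at 0.38 ± 0.12. limma called 0 of the 4 after adjustment over all tested genes (adjusted p between 0.0608 and 0.977), and 2 had an unadjusted p under 0.05. Since 10.8% of all tested genes were called lower and 14.4% higher, 0 of 4 does not set the family apart. Gjd3 was above background on both CKO arrays and on 1 control array, and with median scaling it was called, at 0.47 with a limma adjusted p of 0.0493. Gja3, Gja10, Gjb6, Gjc3, Gjd2, Gjd4, Gje1, Panx2 and Panx3 were not above background on enough arrays to be tested.

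Of 12 tested genes whose products bind, modify or carry connexins, 1 rose (8.33%, against 14.4% of all tested genes) and 0 fell (against 10.8%), with a median of 0.02. With 12 genes these shares are near the background, and 4 had an unadjusted limma p under 0.05. The one that rose was Nedd4, a ubiquitin ligase gene whose product acts on Cx43, by 0.35 ± 0.10 (limma adjusted p = 0.0429), and without either CKO array 0 were called. Tjp1, whose product ZO-1 binds connexin tails, was at 0.40 ± 0.15 (limma adjusted p = 0.102) and the caveolin gene Cav1 at -0.30 ± 0.11 (limma adjusted p = 0.0862).

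Arterial and Notch genes, a list chosen with earlier results of these data known, differed in both directions. Of 15 tested, 1 fell (6.67%, against 10.8% of all tested genes) and 5 rose (33.3%, against 14.4%), with a median of 0.07. Cxcr4, a chemokine receptor gene of vessel tip cells, had raw signals of 185 and 199 on CKO arrays and 117 and 124 on control arrays, and since the control arrays were below background its rise was at least 2.64-fold. Cxcr4 was thus tested only because of its CKO signals, and nothing is read from the count of 5. Sox7 and Sox17, transcription factor genes of endothelium and endoderm, rose by 1.23 ± 0.12 and 0.79 ± 0.09. The chemokine gene Cxcl12 rose by 0.77 ± 0.09 on its brightest probe (limma adjusted p between 0.00226 and 0.00348 for Sox7, Sox17 and Cxcl12). Further Sox7 probes stood at 0.95 and -0.00, a second Sox17 probe at 1.29, and 2 further Cxcl12 probes stood at 0.08 and -0.11. The semaphorin and VEGF receptor gene Nrp1 also rose, by 0.57 ± 0.11 (limma adjusted p = 0.0137) on its brightest probe, with others at 0.56 and -0.09. Unc5b, a netrin receptor gene, fell by 0.40 ± 0.12 (limma adjusted p = 0.0488), and 0 genes of the list were called lower when any 1 array was left out. Raw signals of Unc5b overlapped, with 350 and 446 on CKO arrays and 412 and 488 on control arrays. The Notch target gene Hey1 stood at -0.00 ± 0.09, the receptor genes Notch1 and Notch4 at -0.11 ± 0.13 and 0.17 ± 0.10, and the arterial ephrin gene Efnb2 at 0.48 ± 0.19, none of them past the threshold. Dll4, the Notch ligand gene of arterial endothelium, Jag1, Jag2, Hey2, Foxc1 and Foxc2 were not above background on enough arrays to be tested.

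In the list of flow-responsive and BMP9/ALK1 pathway genes, 4 of 14 fell (28.6%, against 10.8% of all tested genes) and 2 rose (14.3%, against 14.4%), with a median of -0.30. The list was chosen with earlier results of these data known, so nothing is read from these shares. Tmem100, a target gene of the receptor ALK1 in endothelium, fell by 1.63 ± 0.10, with raw signals of 139 and 155 on CKO arrays and 223 and 230 on control arrays. The flow-induced factor gene Klf2 fell by 1.17 ± 0.15, and Edn1, which encodes the vessel constrictor endothelin, by 0.49 ± 0.11. Klf4, a factor gene that flow also induces in endothelium, rose by 1.21 ± 0.09, and a dimmer Klf4 probe stood at 0.53 (limma adjusted p between 0.000511 and 0.0207 for these 4). The raw signals of Edn1 overlapped, with 136 and 154 on CKO arrays and 143 and 154 on control arrays. Id3, a BMP target gene, fell by 0.40 ± 0.10, and its raw signals also overlapped, with 339 and 389 on CKO arrays and 378 and 443 on control arrays. The signal transducer gene Smad5 rose by 0.38 ± 0.10 on its brightest probe but stood at -0.58 on another. When any 1 array was left out, 2 or 3 genes of the list were called lower and 1 higher. The ALK1 receptor gene Acvrl1 at -0.30 ± 0.13 and the co-receptor gene Eng at -0.17 ± 0.10 did not pass the test.

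Of 9 tested transcription factor genes known to regulate Gja5 or heart chamber identity, 1 fell (11.1%, against 10.8% of all tested genes) and 4 rose (44.4%, against 14.4%), with a median of 0.26. This list too was chosen with earlier results of these data known, so nothing is read from these shares. Hand2 rose by 0.85 ± 0.15, Gata6 by 0.75 ± 0.09, Hand1 by 0.49 ± 0.12 and Tbx20 by 0.44 ± 0.13, while Hopx fell by 0.44 ± 0.11 (limma adjusted p between 0.00389 and 0.0461). When 1 array was left out, 0 or 1 were called lower and 1 to 3 higher, the 1 being without CKO array 1. Tbx5 and Nkx2-5, both activators of Gja5 in the mouse heart, were not above background on enough arrays to be tested.

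**Figure D4:**
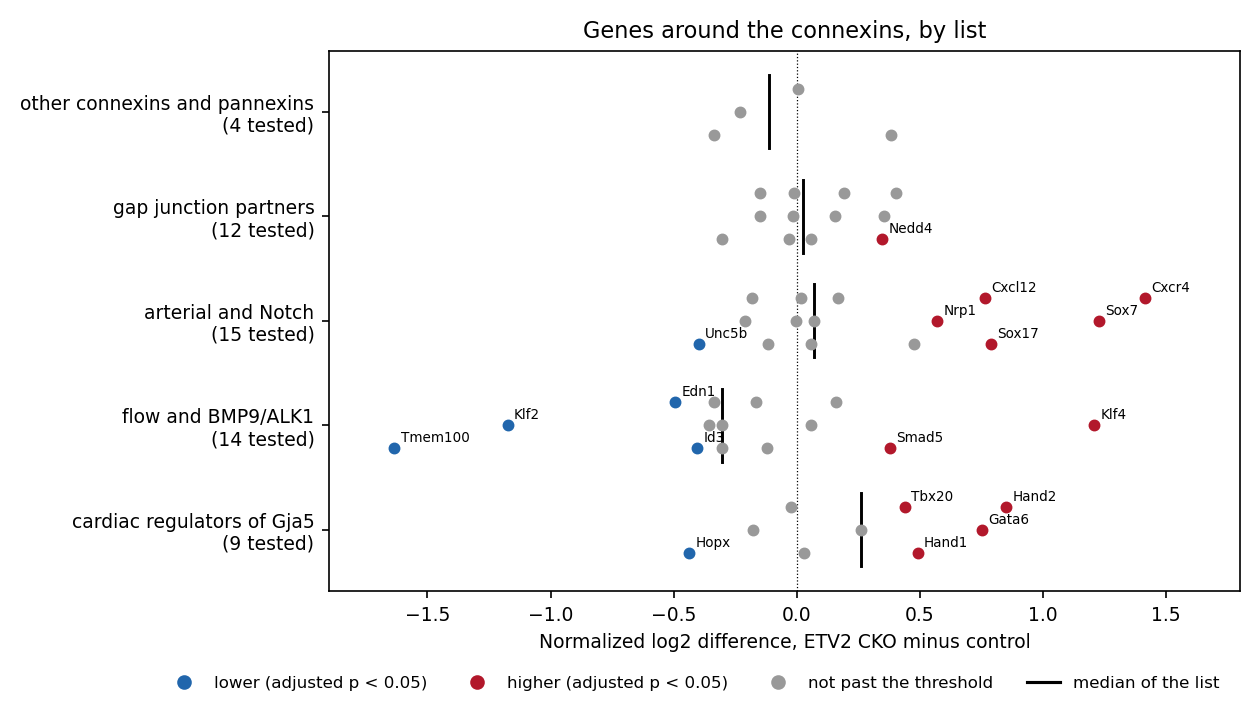
Normalized log2 difference of ETV2 CKO minus control for each tested gene of 5 lists around the connexins, 1 point per gene, with genes past a limma adjusted p of 0.05 named and coloured and the median of each list as a bar. In the flow and BMP9/ALK1 list Tmem100 and Klf2 lie at -1.63 and -1.17, and the arterial and Notch list has 5 named genes to the right and 1 to the left. The lists were chosen with earlier results of these data known. The Cxcr4 point is a fitted value against control arrays below background.

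**Figure D5:**
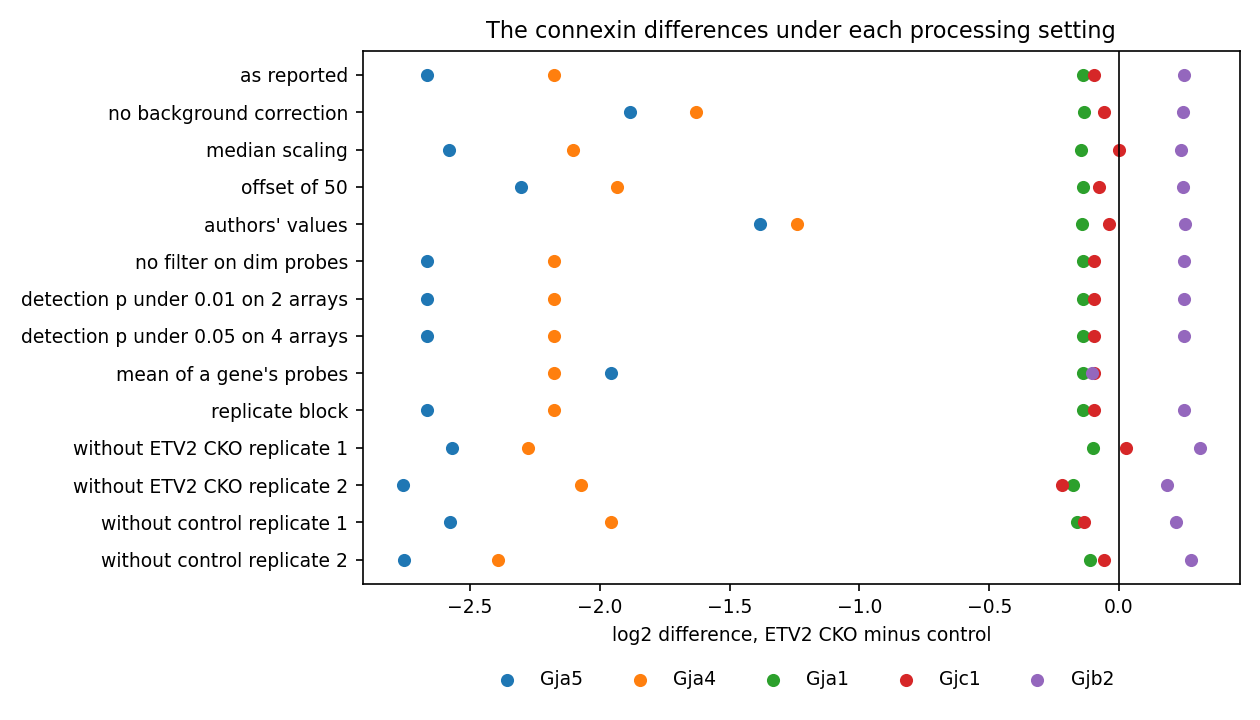
Log2 difference of ETV2 CKO minus control of the 5 tested connexin genes under the reported setting and 13 alternatives, 1 row per setting. Gja5 lies between -2.76 and -1.38 and Gja4 between -2.39 and -1.24 in every alternative shown, and both come nearest to 0 on the authors' values, while Gja1, Gjc1 and Gjb2 stay between -0.22 and 0.31.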

How the data were processed

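Per the file headers, the deposited table of non-normalized signals holds 1 intensity column per array on a linear scale, and beside each the authors' detection p-value, tied to the signal on its left. The authors' processed table, deposited as linear intensity with the same distribution on every array, served as an alternative on a log2 scale. No source used here gives its other steps, and lumi 2.15.1 is named with no role in the submitters' processing notes. No column was left out.

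Probes were named from the platform annotation (34885 with 1 symbol, 18 with several, 10378 unnamed), and a lookup of their Entrez gene IDs in the RefSeq gene table changed 0 symbols. Signals were corrected and normalized with neqc of limma 3.58.1 in R 4.3.3 (offset 16, quantile, log2). The offset pulls differences of dim genes towards 0, and background correction widens them. Gja5 was 6.34-fold lower as reported, 4.93-fold with an offset of 50 and 3.69-fold without background correction. Probes with detection p under 0.05 on at least 2 arrays were kept, with the brightest used per gene. lmFit and eBayes compared the groups with no covariate, and limma's 2-sided p-values were adjusted by Benjamini-Hochberg across all 10603 genes (called under 0.05). Further probes come from the same model over 16301 probes. The fit was run on simulated data with independent normal noise, the form it assumes. Array effects, background correction, the filter and the choice of probe were not part of that simulation. A gene below background on all arrays of a group has a bound, against the higher of its own signal and the lowest signal above background.

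Named genes are every probe of the members, the rest of the family, up to 4 genes of largest change past the threshold per list, the 5 nearest patterns and Etv2; others are named for small counts or as members that did not pass, chosen after their values were seen. Members, lists and tests were chosen with earlier results of these data known. Arrays carry no slide or scan field here, so batches were not examined.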

Additional observations from a re-analysis of the deposited data

How the results depend on the processing

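Over 13 alternatives the Gja5 difference stayed between -2.76 and -1.38 and that of Gja4 between -2.39 and -1.24, below 0 in each. Without background correction they were -1.88 and -1.63, with an offset of 50 they were -2.30 and -1.93, and on the authors' values -1.38 and -1.24. Gja5 was -1.96 and Gjb2 -0.10 as the mean of a gene's probes. Gja1 lay between -0.18 and -0.10, and Gjc1 between -0.22 and 0.02. Against 1144 genes lower and 1527 higher as reported (57.2% of calls higher), median scaling gave 649 lower and 1535 higher (70.3%), and leaving out any 1 array gave 545 to 671 lower and 751 to 1013 higher. Called genes over the 5 lists, 18 as reported, were 10 to 12 when 1 array was left out, where the lone array is assumed to vary like the other group. Under median scaling 1 further connexin, Gjd3, was called. Per list and direction, counts ranged for arterial and Notch genes from 0 to 1 lower and 3 to 6 higher, for flow genes from 2 to 5 lower and 1 to 2 higher, for cardiac regulators from 0 to 1 lower and 1 to 4 higher, and for partners from 0 to 2 lower and 0 to 3 higher. The cause of these shifts was not tested. Same-numbered arrays of the groups share only a number: their deviations correlated at 0.07 over 18817 probes, and with the replicate block 1164 genes were lower and 1561 higher.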
